A study of Mus musculus with 2 samples.

Results

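The Ifng-positive CD4 conventional T (Tconv) cells of B16 melanomas were the tumor T cells that carried the CD4 transcript, no transcript of Foxp3 or of either CD8 chain, and at least 1 transcript of Ifng. They numbered 209 of 9078 cells that passed the filters (2.30%) and 209 of 1769 Tconv cells (11.8%), out of 14035 barcodes in all. A Tconv cell was a cell with at least 1 unique molecular identifier (UMI, a tag that counts one captured mRNA molecule) of Cd4 and 0 UMIs of Foxp3, Cd8a and Cd8b1. Of the 223 Tconv cells with an Ifng UMI, 5 were left out for a UMI of Zbtb16, a factor of innate-like T cells, and 9 for at least 2 UMIs in total of Ccl1, Csf2, Lif and Tnfsf11. The cells were thus chosen by their own Ifng count, and their Ifng level is given as a description. They were compared with the 1546 Tconv cells that had 0 Ifng UMIs.

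The cells came from C57BL/6J mice that had received 100000 melanoma cells intradermally, either the B16 line or B16–IL-33, a B16 line engineered to secrete the alarmin cytokine IL-33. T cells were sorted on TCR-β on day 9, marked with hashtag antibodies by tumor, and sequenced as 1 pool with a gene expression, a hashtag and a T cell receptor (TCR) library. With 1 pool there are no replicates, so no test across animals was possible, and every comparison below is between cells of 1 library. All intervals are 95% intervals for counting error only, exact except for those of a difference between shares, and since the UMIs of a gene gather in some cells, they are narrower than the spread between animals would be.

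CD4 T cells that make interferon-γ (IFN-γ) are classically the T helper 1 (Th1) cells. In that pathway, IL-12 and IL-18 act with signals from the TCR, the transcription factor T-bet (encoded by Tbx21) opens the Ifng locus, and T-bet also switches on the chemokine receptor CXCR3, which guides cells into inflamed tissue. In tumors, IFN-γ acts on macrophages and on the tumor cells themselves, where it raises antigen presentation.

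Few of the Ifng-positive Tconv cells belonged to an expanded clone. Receptor sequences of some such clones are shown because all but the last pair tie an Ifng-positive cell to Ifng-negative relatives. The sequences are the complementarity-determining region 3 (CDR3), the part of the receptor that touches the peptide, 5′ to 3′. Capitals mark the bases between the stretch that at least 80% of the different CDR3s of the same V gene share at the start and the stretch that those of the same J gene share at the end. A CDR3 is joined in the cell from separate gene segments and so has no single position in the genome. The first pair is from a clone of 4 Tconv cells, 1 of them Ifng-positive, that also held 1 Treg and 1 CD8 cell. The second pair and the single beta chain that follows are from clones with 1 Ifng-positive and 2 Ifng-negative Tconv cells each. The last pair is from the one clone in which both Tconv cells were Ifng-positive.
TRAV7-6 with TRAJ52: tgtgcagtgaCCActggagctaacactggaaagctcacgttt
TRBV13-1 with TRBJ1-1: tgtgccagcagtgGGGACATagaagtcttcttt
TRAV6-6 with TRAJ37: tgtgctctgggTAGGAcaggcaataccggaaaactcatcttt
TRBV2 with TRBJ1-2: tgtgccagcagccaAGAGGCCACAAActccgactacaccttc
TRBV5 with TRBJ2-5: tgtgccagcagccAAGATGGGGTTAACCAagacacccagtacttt
TRAV14D-3-DV8 with TRAJ13: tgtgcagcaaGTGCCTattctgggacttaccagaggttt
TRBV30 with TRBJ2-5: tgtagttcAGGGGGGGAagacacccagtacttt

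A clonotype was known for 141 of the 209 Ifng-positive Tconv cells, and these 141 cells spread over 140 clonotypes. Of the 141, 11 (7.80%, 3.96 to 13.5%) belonged to a clone with at least 2 Tconv cells, against 52 of 1030 Ifng-negative cells (5.05%, 3.79 to 6.57%). The difference of 2.75 percentage points had an interval of −1.38 to 8.62 and was not detectable at this number of cells. The 11 cells came from 10 of the 27 expanded Tconv clones, and 9 of those 10 clones also contained an Ifng-negative cell. The largest Tconv clone had 5 cells, and 0 of them were Ifng-positive. Ifng-positive CD8 cells were far more often clonal: 96 of 277 (34.7%, 29.1 to 40.6%) belonged to a clone with at least 2 CD8 cells. Of the clonotypes of Ifng-positive Tconv cells, 2 also held a Treg cell and 3 a CD8 cell.

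An invariant alpha chain, TRAV11 joined to TRAJ18, marks natural killer T (NKT) cells, which recognise lipids and release IFN-γ rapidly. It is shown because such cells can carry Cd4 and would pass the rule. It was found in 2 of 107 Ifng-positive Tconv cells with a productive alpha chain (1.87%, 0.227 to 6.59%) and in 15 of 690 Ifng-negative ones (2.17%, 1.22 to 3.56%). The rule had removed cells with a Zbtb16 UMI, a factor of NKT cells, from the Ifng-positive side alone, and Ifng-negative cells under the same limits had the chain in 12 of 662 (1.81%, 0.940 to 3.14%). T cells without a lineage UMI had it in 42 of 836 cells (5.02%), and CD8 cells in 0 of 539. Both Ifng-positive Tconv cells had the same nucleotides, which 28 cells of the library shared.
TRAV11 with TRAJ18: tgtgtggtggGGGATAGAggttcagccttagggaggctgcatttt

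Use of the beta chain's V genes was spread over 20 V genes among the 130 Ifng-positive Tconv cells with a known beta chain. The most frequent, listed by the software as TRBV12-2+TRBV13-2, was in 20 of 130 cells (15.4%, 9.66 to 22.8%) and in 101 of 952 Ifng-negative cells (10.6%, 8.72 to 12.7%). TRBV17 was in 9 of 130 (6.92%, 3.21 to 12.7%) and in 18 of 952 (1.89%, 1.12 to 2.97%), and it was named after its values were seen. The 9 cells with TRBV17 had 9 different beta CDR3s.

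Ifng was detected in every T cell population, most often in CD8 cells and least often in Treg cells. The gene (ENSMUSG00000055170, chromosome 10, 118441046 to 118445892, plus strand, GRCm38) was seen in 223 of 1769 Tconv cells, or 12.6% (11.1 to 14.2%), in 31.9% (29.2 to 34.8%) of 1127 CD8 cells, in 5.83% (4.96 to 6.79%) of 2609 Treg cells and in 10.4% (9.21 to 11.6%) of 2576 T cells with no Cd4, CD8 or Foxp3 UMI. CD3-negative myeloid cells, which should lack the transcript, had it in 5 of 142 cells (3.52%, 1.15 to 8.03%), with 1 UMI in each. These myeloid cells were deeper, with a median of 4322.5 UMIs against 2498 in Tconv cells. After each cell was thinned to 1500 UMIs, the share was 8.36% (6.99 to 9.91%) in Tconv cells, 19.1% in CD8 cells, 3.81% in Treg cells and 2.59% (0.537 to 7.37%) in the myeloid cells. The order of the populations with a lineage marker was thus the same at equal depth, while the Tconv cells and the T cells without a lineage UMI, at 9.17% (7.88 to 10.6%), had overlapping intervals.

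**Figure D1:**
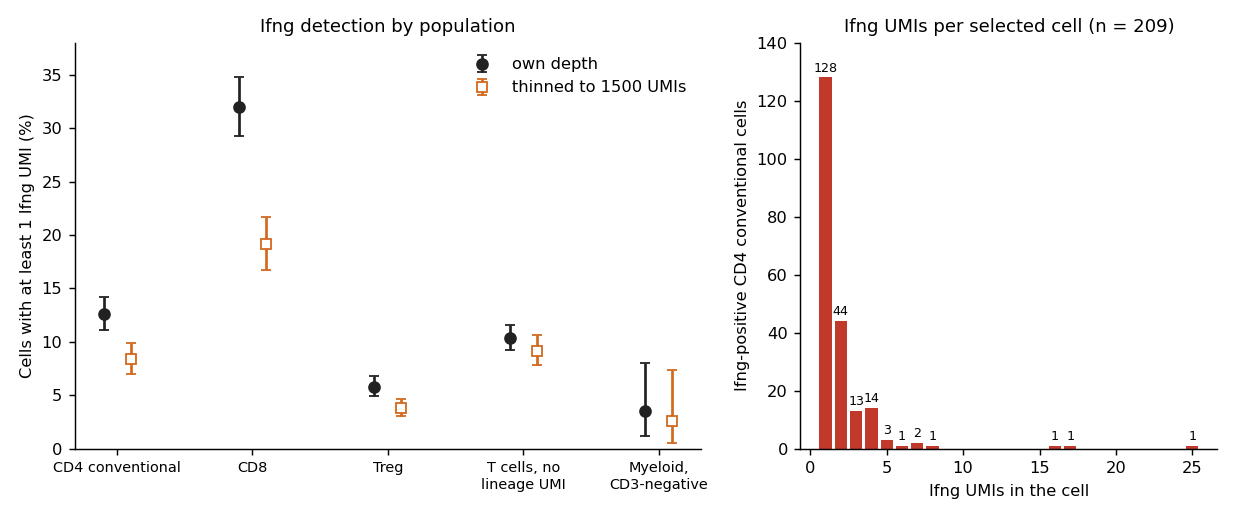
Left, the share of cells with at least 1 Ifng UMI in 5 populations at the cells' own depth (filled circles) and after thinning each cell to 1500 UMIs (open squares), with exact 95% intervals; Tconv cells lie at 12.6% and 8.36%, between CD8 and Treg cells. Right, the number of Ifng-positive Tconv cells by their Ifng UMIs, with 128 of the 209 cells at 1 UMI and a tail that ends at 25.

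Few Ifng UMIs were captured in most Ifng-positive Tconv cells. A single UMI was seen in 128 cells, 2 UMIs in 44 and at least 3 in 37, and 3 cells had at least 10, with a maximum of 25. The 412 Ifng UMIs amounted to 592 CPM (536 to 652), where CPM is the count scaled to 1000000 UMIs of the summed cells, and the 5 highest cells held 73 of them (17.7%). The Ifng-positive Tconv cells together held 14.2% of the 2911 Ifng UMIs of all filtered cells, CD8 cells 44.8% and Treg cells 8.52%. If free mRNA gave Tconv cells the Ifng level of the myeloid cells, 8.17 CPM, it would account for 41.0 (13.3 to 95.7) of their 467 Ifng UMIs, or 8.78% (2.85 to 20.5%). Which of the 128 single-UMI cells such mRNA could have placed in the group was not tested.

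The chance of being chosen moved with depth. Among Tconv cells with under 1500 UMIs, 7.76% had an Ifng UMI, among those with 1500 to under 2500 UMIs 10.7%, among those with 2500 to under 4000 UMIs 13.4%, and among those with at least 4000 UMIs 19.3%. Accordingly, the Ifng-positive Tconv cells had a median of 2789 UMIs (491 to 9184) and 1165 genes, and the Ifng-negative ones 2444.5 UMIs and 1017.5 genes. The limits of the rule left other Ifng-positive CD4 cells outside: 110 with a Foxp3 UMI, 44 with a CD8 UMI and 7 with over 2500 genes. The 9 cells left out for the 4 burst cytokines had an Ifng level of 999.9 CPM (729 to 1338), and the 17 chosen cells just inside that limit, with 1 such UMI, had 646 CPM (467 to 870).

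The cells were T cells by their transcripts. Cd3d, Cd3e or Cd3g was seen in all but 2 of the 209, with Cd3d at 1056 CPM against 1071 CPM in Ifng-negative cells, and 19 cells had 2 productive beta chains, which a doublet or allelic inclusion can give. At least 5 UMIs of myeloid markers (Lyz2, C1qa, C1qb, C1qc, Csf1r) were seen in 3 Ifng-positive and 22 Ifng-negative cells, and 0 and 1 had as many UMIs of melanoma markers. Of the markers given for the group, Cxcr3 was modestly higher than in Ifng-negative cells, and Tbx21 could not be told apart from them. Tbx21 had 30 UMIs in 25 of the 209 cells, or 43.1 CPM (29.1 to 61.5), against 130 UMIs or 30.5 CPM (25.5 to 36.2) in Ifng-negative cells, a ratio of 1.41 (0.917 to 2.12). Cxcr3, the receptor for the IFN-γ-induced chemokines CXCL9 and CXCL10, had 187 CPM against 150 CPM, a ratio of 1.25 (1.02 to 1.51). After thinning, 30.3% (23.7 to 37.4%) of the Ifng-positive cells had a UMI of Tbx21 or Cxcr3 and 20.9% (18.7 to 23.3%) of the Ifng-negative cells. The cells are therefore named by their rule, as Ifng-positive Tconv cells, and not as Th1 cells.

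Compared with Ifng-negative Tconv cells, the Ifng-positive ones had more mRNA of single effector genes, among them Ccl5, Nkg7, Cxcr6, Tnf, Il18rap and Ly6c2, and less of several quiescence and lymphoid genes, among them Ccr7 and Satb1. The first 5 come from 5 lists whose median ratios lay between 0.912 and 1.11, and Ly6c2 from none. Of 3039 genes with at least 200 UMIs in both groups together, 52 (1.71%) were at least 1.5-fold higher and 96 (3.16%) at least 1.5-fold lower, and the median ratio was 1.02. This is a rule of size and not a test. Without the single cell that held most of a gene's UMIs, 30 of the 52 genes were still past the fold, and 84 of the 96, so a good part of the higher genes lay close to the limit or rested on 1 cell.

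**Figure D2:**
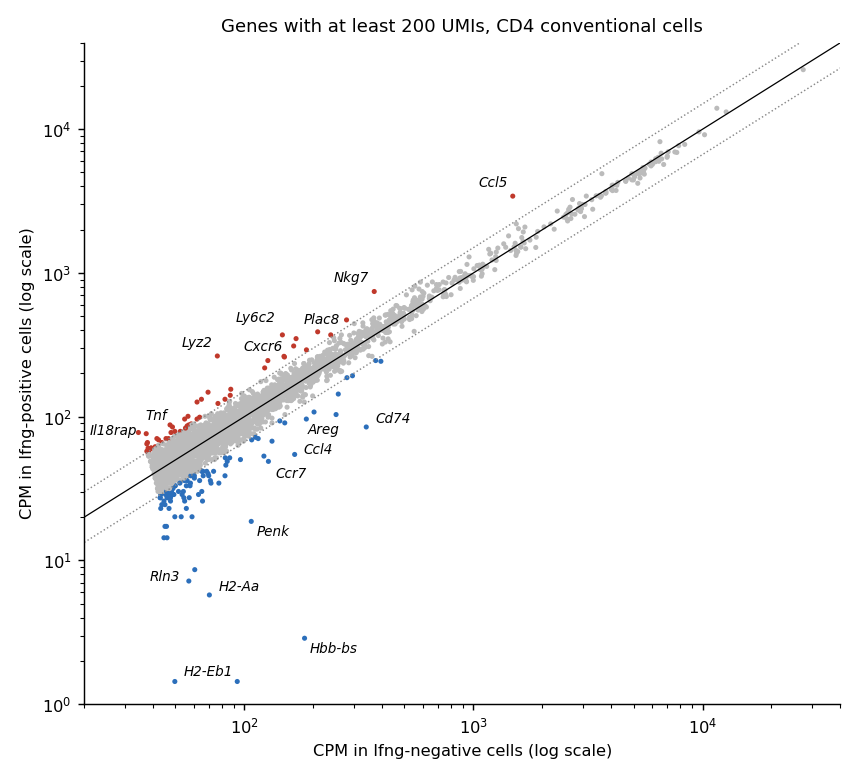
CPM of summed UMIs in Ifng-negative Tconv cells (x axis) and Ifng-positive Tconv cells (y axis), both on log scales, for 3038 genes with at least 200 UMIs (1 gene at 0 in the Ifng-positive cells is not drawn). The solid line marks equal levels and the dotted lines a ratio of 1.5 in either direction; Ccl5 at 3423 against 1485 CPM stands apart among abundant genes, and the lowest ratios are those of hemoglobin and MHC class II genes.

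Of the ranked Th1 transcription factors only Bhlhe40 was past the fold. Of the 12 listed, 6 had enough UMIs to be ranked, 1 was at least 1.5-fold higher and 0 lower, with a median ratio of 1.27 beside 1.02 for all genes. Bhlhe40, which limits IL-10 and sustains cytokine output, was at 371 CPM against 238 CPM, a ratio of 1.56 (1.35 to 1.79), which was 1.46 and no longer past the fold without cells with 2 beta chains. Runx3, a partner of T-bet at the Ifng gene, stood at 154 CPM against 105 CPM (1.46, 1.17 to 1.81), and Id2, which restrains E proteins in effector cells, at 704 CPM against 510 CPM (1.38, 1.25 to 1.52). Stat4, which carries the IL-12 signal, had a ratio of 1.16 (0.884 to 1.51). Eomes, the T-bet relative of CD8 and memory cells, had only 3 UMIs in the Ifng-positive cells.

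Among receptors of Th1 cytokines, a chain of the IL-18 receptor was past the fold upward and a chain of the IL-2 receptor downward. Il18rap, the accessory chain of the IL-18 receptor, was at 76.1 CPM against 37.3 CPM, a ratio of 2.04 (1.47 to 2.80), in 39 cells (18.7%) against 138 (8.93%). Il18r1, its binding chain, was at 128 CPM against 86.3 CPM (1.48, 1.16 to 1.87). Il12rb2, the chain that makes a cell responsive to IL-12, had 26 and 88 UMIs, under the 200 UMIs needed to be ranked, with a ratio of 1.81 (1.12 to 2.83). Ifngr2, a chain of the IFN-γ receptor and also unranked, was lower, at 4.31 CPM (0.889 to 12.6) against 17.6 CPM (13.8 to 22.0). The unranked Il12rb1 and Il15ra, at 38.8 against 34.0 CPM and 8.62 against 9.14 CPM, had overlapping intervals. Il2ra, the high-affinity chain of the IL-2 receptor that Treg cells carry, was lower, at 53.2 CPM against 122 CPM (0.437, 0.304 to 0.610), whereas Il2rb, shared by the receptors of IL-2 and IL-15, was at 382 CPM against 301 CPM (1.27, 1.11 to 1.45). In all, 1 of the 8 ranked receptors was past the fold upward and 1 downward, with a median ratio of 1.11.

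Of 11 ranked homing receptors, 2 were past the fold upward and 1 downward, with a median ratio of 1.08. Cxcr6, whose ligand CXCL16 retains T cells in tissue, was at 310 CPM against 164 CPM (1.89, 1.62 to 2.21) and was seen in 92 of 209 cells (44.0%) against 363 of 1546 (23.5%). At equal depth the shares were 34.6% (27.8 to 41.9%) and 16.3% (14.3 to 18.5%), so the groups lay apart there too. Itgb1, the integrin β1 chain of memory and effector T cells, was at 471 CPM against 279 CPM (1.69, 1.49 to 1.91). Itgae, the CD103 chain that binds epithelial E-cadherin, was lower, with 12 UMIs or 17.2 CPM against 45.7 CPM (0.377, 0.191 to 0.674).

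**Figure D3:**
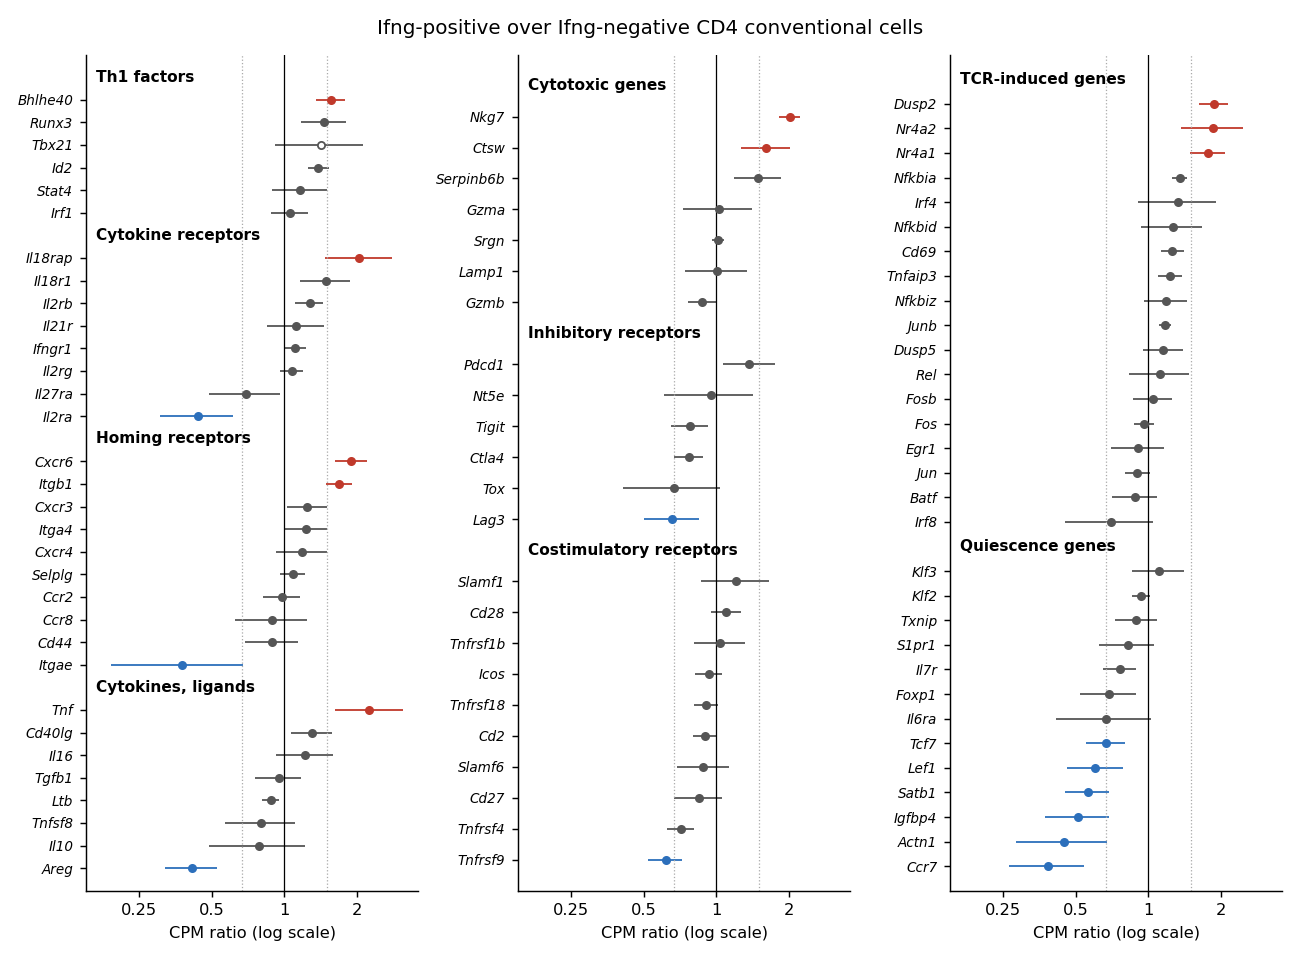
Ratio of CPM in Ifng-positive over Ifng-negative Tconv cells (log scale) with its exact 95% interval for the ranked genes of 9 lists that are reported here, and Tbx21 as an open point since it had under 200 UMIs. Dotted lines mark a ratio of 1.5 in either direction, red points lie past it upward and blue points past it downward; the quiescence genes have 6 blue points and no red one, with Ccr7 lowest at 0.384.

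Among cytokines and ligands, the cells that held Ifng more often held Tnf and Fasl and less Areg. Tnf, the inflammatory partner of IFN-γ in Th1 cells, had 54 UMIs in 36 cells (17.2%), or 77.6 CPM, against 34.5 CPM and 7.44% of the Ifng-negative cells, a ratio of 2.25 (1.62 to 3.09). Fasl, the death ligand, was below the number of UMIs needed to be ranked, with 34 UMIs in 30 cells (14.4%) against 77 UMIs in 68 cells (4.40%), and a ratio of 2.71 (1.75 to 4.10). Cd40lg, which licenses dendritic cells and B cells, was at 181 CPM against 140 CPM (1.30, 1.06 to 1.57). At equal depth, 34.6% (27.8 to 41.9%) of the Ifng-positive cells had a UMI of at least 1 of Tnf, Fasl and Cd40lg, and 22.3% (20.1 to 24.8%) of the Ifng-negative cells. Areg, the epidermal growth factor receptor ligand amphiregulin, was at 103 CPM against 251 CPM (0.411, 0.320 to 0.523), though the shares of cells with a UMI were near each other, at 11.96% and 12.94%, and a single Ifng-positive cell held 21 of its 72 UMIs. Il2, the growth factor of T cells, had 9 UMIs in 9 cells (ratio 1.103, 0.477 to 2.27). Over the 8 ranked genes of this list the median ratio was 0.912, with 1 past the fold in each direction.

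Ccl5 and Nkg7 showed the same direction as Cxcr6, whereas Gzmb and Gzma did not. Ccl5, a chemokine that effector and memory T cells store, was at 3423 CPM against 1485 CPM (2.31, 2.20 to 2.42) and in 130 of 209 cells (62.2%) against 781 of 1546 (50.5%). Nkg7, a granule membrane protein of cytotoxic and Th1 cells, was at 743 CPM against 369 CPM (2.01, 1.82 to 2.23) and in 135 cells (64.6%) against 508 (32.9%). Ctsw, a cysteine protease of cytotoxic cells, was at 132 CPM against 82.3 CPM (1.61, 1.26 to 2.03). The ranked granule proteases Gzmb and Gzma were not higher: Gzmb was at 352 CPM against 403 CPM (0.874, 0.761 to 0.999), and Gzma had a ratio of 1.02 (0.728 to 1.40). Of those too sparse to be ranked, Gzmk was at 54.6 CPM (38.6 to 74.9) against 37.8 CPM (32.1 to 44.1). Gzmc was at 14.4 CPM (6.89 to 26.4) against 27.2 CPM (22.5 to 32.6). Prf1, the pore former, had 8 UMIs against 60 in the Ifng-negative cells. Its level was 11.5 CPM (4.96 to 22.6) against 14.1 CPM (10.7 to 18.1). Ccl4, a chemokine of strongly stimulated CD8 cells, was lower, at 54.6 CPM against 166 CPM (0.329, 0.231 to 0.456), with 21 cells (10.0%) and 154 cells (9.96%) that held a UMI. At equal depth both Ccl5 and Nkg7 were seen in 31.9% (25.2 to 39.1%) of the Ifng-positive and 14.5% (12.6 to 16.6%) of the Ifng-negative cells. At the other end, 23.2% (17.4 to 30.0%) of the Ifng-positive cells had no UMI of Tbx21, Cxcr3, Ccl5 or Nkg7 at that depth, against 41.1% (38.3 to 43.9%). Of 7 ranked cytotoxic genes 2 were past the fold upward and 0 downward (median 1.02), and of 3 ranked chemokines 1 was past it in each direction (median 0.937).

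Of 18 ranked genes switched on early after TCR stimulation, 3 were past the fold upward, 0 downward and 15 were not past it, with a median ratio of 1.17 and values from 0.701 up to 1.86. The 3 were Nr4a1, an orphan nuclear receptor whose mRNA follows TCR signal strength, at 263 CPM against 149 CPM (1.77, 1.49 to 2.08), its relative Nr4a2 at 87.6 CPM against 47.4 CPM (1.85, 1.37 to 2.47), and Dusp2, a phosphatase of MAP kinases, at 389 CPM against 209 CPM (1.86, 1.62 to 2.14). Nfkbia, the inhibitor that NF-κB itself induces, was at 1293 CPM against 957 CPM (1.35, 1.26 to 1.45). Fos and Egr1, which also respond to tissue dissociation, had ratios of 0.959 (0.870 to 1.05) and 0.907 (0.700 to 1.16). Cnot6l, a deadenylase, was the 1 of 5 ranked mRNA decay factors past the fold, at 141 CPM against 86.8 CPM (1.62, 1.29 to 2.03), and Zfp36l2, which binds AU-rich elements and holds preformed Ifng mRNA silent in memory T cells, had a ratio of 1.31 (1.16 to 1.48).

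Of 13 ranked quiescence and lymphoid genes, 6 were past the fold downward and 0 upward, with a median ratio of 0.668. Ccr7, which leads cells to lymph nodes, was at 48.8 CPM against 127 CPM (0.384, 0.263 to 0.543) and in 16 of 209 cells (7.66%) against 290 of 1546 (18.8%). Satb1, a chromatin organiser of naïve T cells, was at 144 CPM against 257 CPM (0.559, 0.451 to 0.686). Lef1 and Tcf7, the paired factors of naïve and stem-like T cells, were at 90.5 against 150 CPM (0.603, 0.458 to 0.782) and 187 against 280 CPM (0.666, 0.551 to 0.799). When the Ifng-negative cells were weighted to the same depth, Lef1 at 0.683 and Tcf7 at 0.703 were no longer past the fold, and the list's median was 0.764. Neither was past it without the upper gene limit (0.716 and 0.743) or in cells with at least 2 Ifng UMIs (0.697 and 0.842). Actn1 and Igfbp4, also of naïve cells, had ratios of 0.446 (0.281 to 0.675) and 0.511 (0.371 to 0.689). Klf2, which maintains recirculation, had a ratio of 0.930 (0.852 to 1.01). At equal depth, 17.8% (12.6 to 24.1%) of the Ifng-positive and 27.7% (25.2 to 30.3%) of the Ifng-negative cells had a UMI of Ccr7 or Lef1, so a naïve-like transcript was still seen in a minority of the Ifng-positive cells.

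Of the ranked inhibitory and costimulatory receptors only Lag3 and Tnfrsf9 were past the fold, both downward. Neither was past it once the Ifng-negative cells were weighted to the same depth. Lag3, an inhibitory receptor for MHC class II, was at 93.4 CPM against 143 CPM (0.654, 0.498 to 0.845), Ctla4 at 332 CPM against 433 CPM (0.767, 0.666 to 0.880) and Tnfrsf9, the costimulatory receptor 4-1BB, at 243 CPM against 394 CPM (0.616, 0.522 to 0.721). Pdcd1, which encodes PD-1, went the other way, at 116 CPM against 84.9 CPM (1.37, 1.06 to 1.75). Among 6 ranked inhibitory receptors 1 was past the fold downward (median 0.773), and among 10 ranked costimulatory receptors 1 (median 0.901), with 0 ranked genes upward in either list. Cd226, a costimulatory receptor with too few UMIs to be ranked, was higher, at 61.8 CPM (44.7 to 83.2) against 30.0 CPM (25.0 to 35.7). Against Ifng-negative cells weighted to the same depth, Lag3 was at 0.833 and Tnfrsf9 at 0.713, and the medians were 0.854 and 0.964. Since a Foxp3 count of 0 does not show that a cell lacks Foxp3, Treg genes were examined as well: of 4 ranked, Ikzf2, which encodes Helios, was lower at 192 CPM against 296 CPM (0.649, 0.539 to 0.777), Il10ra was higher at 1.53 (1.07 to 2.16), and the median was 0.985. Neither call held throughout: Ikzf2 was at 0.757 at matched depth, and Il10ra at 1.44 against Ifng-negative cells under the same limits and at 1.11 with at least 2 Ifng UMIs. The Treg genes too sparse to be ranked were all lower, though the intervals of their levels overlapped, narrowly for Ikzf4. Ikzf4 was at 11.5 CPM (4.96 to 22.6) against 26.7 CPM (22.1 to 32.1). Itgb8 was at 8.62 CPM (3.16 to 18.8) against 20.4 CPM (16.3 to 25.2), Lrrc32 at 10.1 against 15.9 and Gpr83 at 1.44 against 2.34. Summed over the 8 listed Treg genes, the level was 566 CPM against 700 CPM. How many of the Ifng-negative cells were Treg cells without a captured Foxp3 mRNA was not tested.

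Genes of the other helper programs were too sparse for a comparison in most cases. Gata3, the factor of type 2 cells and the 1 ranked gene of 7 in its list, had a ratio of 0.928 (0.724 to 1.18), and Il13 had 0 UMIs in the 209 cells, which allows up to 3 counts, against 138 UMIs in 14 Ifng-negative cells, 91 of them in 1 cell. Il17a had 2 UMIs against 119, and the median of the 1 ranked gene of the T helper 17 list was 0.896. Among 3 ranked genes of the follicular helper list (median 0.907), Izumo1r, the folate receptor 4 of Treg and follicular cells, was lower at 0.516 (0.396 to 0.663). Interferon responses did not separate the groups at this fold: 0 of 12 ranked genes induced by IFN-γ (median 0.964) and 0 of 8 type I interferon genes (median 1.02) were past it in either direction. Of 13 ranked glycolysis genes only Slc16a3, a lactate exporter, was past the fold, at 0.475 (0.281 to 0.758), or 0.764 with at least 2 Ifng UMIs, with a list median of 1.02. For the cell cycle, 0 of 4 ranked genes were past the fold (median 1.03), and Mki67, below the number needed to be ranked, had 46 UMIs in 25 cells against 142 in 101, a ratio of 1.98 (1.39 to 2.79). Of the other unranked cell cycle genes, Birc5 was also higher, at 48.8 CPM (33.8 to 68.3) against 24.4 CPM (19.9 to 29.5). Tyms was lower, at 5.75 CPM (1.57 to 14.7) against 20.6 CPM (16.5 to 25.4), and the rest had overlapping intervals. Of 4 ranked innate-like T and NK genes (median 1.12), Klrd1, the CD94 chain, was past the fold at 1.75 (1.28 to 2.34), while Ncr1, an NK cell receptor, had 0 UMIs in both groups. None of the 4 B cell and 4 melanoma markers had enough UMIs to be ranked.

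Among the 12 highest ratios, Ly6c2 and Sorl1 were spread over many cells, while Lyz2 and Ccl8 lay mostly in 1 cell. Ly6c2, a surface antigen of effector and memory T cells, was at 371 CPM against 147 CPM (2.53, 2.18 to 2.93), in 66 of 209 cells (31.6%) against 213 of 1546 (13.8%), and at equal depth in 24.9% (18.8 to 31.7%) and 10.2% (8.62 to 12.1%). Its near copy Ly6c1 was among the 12 lowest, at 14.4 CPM against 44.6 CPM (0.322, 0.152 to 0.606). How reads that fit both genes were counted was not examined. Plac8 was at 349 CPM against 168 CPM (2.08, 1.79 to 2.40), with 47 of its 243 UMIs in 1 cell and a ratio of 1.69 without it. Sorl1, a sorting receptor, was at 126 CPM against 62.1 CPM (2.03, 1.58 to 2.60), in 67 cells (32.1%) against 223 (14.4%). Ifitm2 and Ifitm3, closely related interferon-induced membrane proteins, had ratios of 2.13 and 1.94, and Ifitm3 had 1.35 without the 1 cell that held 53 of its 171 UMIs. Without the upper gene limit they were at 1.46 and 1.38 and no longer past the fold. Lyz2, lysozyme of myeloid cells and the 1 ranked gene of the 5 myeloid markers, had the highest ratio of all, 3.47, but 165 of its 184 UMIs lay in 1 cell, and without it the ratio was 0.362. C1qa, another of these markers, had 4 UMIs in the Ifng-positive cells. Ccl8, a myeloid chemokine, likewise had 76 of 92 UMIs in 1 cell and a ratio of 0.358 without it, in place of 2.03.

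The lowest ratios also rested in part on a few Ifng-negative cells. The hemoglobin genes Hba-a1, Hba-a2 and Hbb-bs had 1, 0 and 2 UMIs in the Ifng-positive cells, and of the 781 UMIs of Hbb-bs in Ifng-negative cells 624 lay in 1 cell. The MHC class II genes H2-Aa, H2-Ab1 and H2-Eb1 and the invariant chain Cd74, products of antigen-presenting cells, were lower at ratios of 0.0817, 0.142, 0.0289 and 0.249. After cells with at least 5 UMIs of myeloid, melanoma or hemoglobin genes or 2 of B cell markers were left out, the ratios of those 4 genes were 0.444, 0.643, 0.180 and 0.521. Rln3, which encodes relaxin 3, and Penk, the precursor of enkephalins, had ratios of 0.126 (0.0404 to 0.297) and 0.174 (0.0921 to 0.301), and 82 of the 457 Penk UMIs of the Ifng-negative cells lay in 1 cell. Rln3 was instead spread, in 5 of 209 cells (2.39%) against 105 of 1546 (6.79%).

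Levels by the number of Ifng UMIs are given as a description, since the classes were cut from the count that chose the cells and the genes were taken from those named above. From 0 through 1, 2 and at least 3 Ifng UMIs per cell, Nr4a1 stood at 149, 220, 271 and 370 CPM and Bhlhe40 at 238, 338, 359 and 470 CPM, while Satb1 stood at 257, 165, 149 and 80.6 CPM and Lag3 at 143, 123, 81.3 and 26.9 CPM. Dusp2 stood at 209, 348, 298 and 591 CPM. Ccl5, in contrast, was already at 3465 CPM in cells with a single Ifng UMI, against 1485 CPM in cells with 0 and 3723 CPM in those with at least 3, and Cxcr6 was at 295, 339 and 323 CPM in the 3 classes of Ifng-positive cells. Tbx21 stood at 42.5, 47.4 and 40.3 CPM in these 3 classes, with intervals that all held the 30.5 CPM of the Ifng-negative cells. Gzmb was lowest in cells with at least 3 Ifng UMIs, at 195 CPM against 403 CPM in those with 1. The class with at least 3 Ifng UMIs comprised only 37 cells and was deeper, with a median of 3215 UMIs against 2692.5 in the class with 1.

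**Figure D4:**
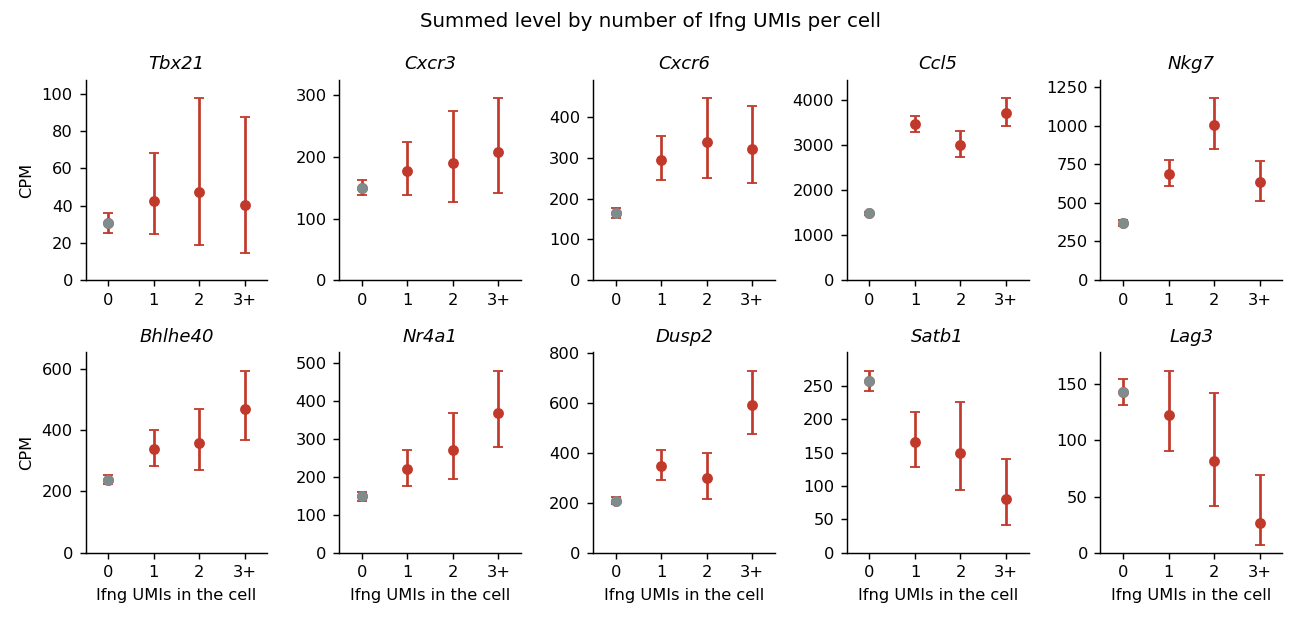
CPM of summed UMIs (y axis, from 0) for 10 genes in Tconv cells with 0 (grey, 1546 cells), 1 (128 cells), 2 (44 cells) and at least 3 (37 cells) Ifng UMIs, with exact 95% intervals. Nr4a1 and Bhlhe40 have higher points and Satb1 and Lag3 lower points in cells with more Ifng UMIs, whereas Ccl5 and Cxcr6 differ mainly between 0 and 1 UMI.

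Against Ifng-positive CD8 cells, the Ifng-positive Tconv cells had less chemokine and cytotoxic mRNA and more mRNA of quiescence genes and mRNA decay factors. The 360 Ifng-positive CD8 cells had a CD8 UMI, no UMI of Cd4 or Foxp3 and at least 1 of Ifng. The limits on Zbtb16 and on the 4 burst cytokines were applied to the Ifng-positive Tconv cells alone. The burst limit had removed 9 Tconv cells, which had an Ifng level of 999.9 CPM. The groups were thus selected by unlike rules. The CD8 cells were deeper, with a median of 4108.5 UMIs, and had an Ifng level of 794 CPM (752 to 839) against 592 CPM, with a maximum of 177 UMIs in a cell and 55.0% of cells with at least 2 UMIs against 38.8%. Of 1378 genes with at least 200 UMIs in these groups together, 128 (9.29%) were at least 1.5-fold higher and 80 (5.81%) at least 1.5-fold lower in the Tconv cells. All 4 ranked chemokines and 8 of 9 ranked cytotoxic genes were among the lower, with median ratios of 0.132 and 0.245 beside 1.02 for all genes, and so were 3 of 4 ranked innate-like T and NK genes (median 0.223). Ccl4 was at 54.6 CPM against 2612 CPM, a ratio of 0.0209 (0.0148 to 0.0287), Prf1 at 11.5 CPM against 234 CPM (0.0491, 0.0211 to 0.0978), Gzma at 64.6 CPM against 1052 CPM, Gzmb at 352 CPM against 1435 CPM and Nkg7 at 743 CPM against 2350 CPM. Higher in the Tconv cells were all 5 ranked quiescence genes (median 1.91), among them Il7r, the survival receptor of memory cells, at 266 CPM against 76.8 CPM (3.46, 2.75 to 4.38), and all 4 ranked mRNA decay factors (median 1.87), with Zfp36 at 783 CPM against 293 CPM (2.67, 2.36 to 3.03). Maf, a factor of CD4 helper cells, had the highest ratio of all, 5.03 (3.80 to 6.71), at 230 CPM against 45.7 CPM. Tnf, with too few UMIs to be ranked, was at 77.6 CPM against 26.2 CPM (2.96, 1.95 to 4.53) and Cd40lg at 181 CPM against 17.1 CPM (10.6, 7.001 to 16.6). Tbx21 was lower, at 43.1 CPM against 70.1 CPM (0.615, 0.397 to 0.926), and Bhlhe40, Runx3 and Cxcr6 had ratios of 1.02, 0.997 and 0.863 with intervals that held 1.

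Against Ifng-positive Treg cells, the Ifng-positive Tconv cells had less mRNA of most ranked costimulatory and inhibitory receptors and more of Cxcr6, Itgb1 and Ccl5. The 152 Ifng-positive Treg cells had a Foxp3 UMI, no CD8 UMI and at least 1 UMI of Ifng. Again, the limits on Zbtb16 and the burst cytokines were not applied to them. Their Ifng level was 424 CPM (373 to 480), with a maximum of 11 UMIs. Of 817 genes with enough UMIs, 30 (3.67%) were at least 1.5-fold higher and 81 (9.91%) lower in the Tconv cells. Lower were 7 of 8 ranked costimulatory receptors (median 0.499) and all 3 ranked inhibitory receptors (median 0.332), with Tnfrsf9 at 243 CPM against 1055 CPM and Ctla4 at 332 CPM against 1000.0 CPM. Il2ra was at 53.2 CPM against 306 CPM. Gzmb was also lower, at 352 CPM against 1554 CPM (0.227, 0.196 to 0.261), and so was Areg, at 103 CPM against 489 CPM. Higher were Cxcr6, at 310 CPM against 144 CPM (2.16, 1.67 to 2.81), Itgb1, at 471 CPM against 173 CPM (2.73, 2.18 to 3.45), and Ccl5, at 3423 CPM against 2162 CPM (1.58, 1.48 to 1.70). Cxcr3 and Nkg7 had ratios of 1.02 (0.784 to 1.33) and 1.01 (0.889 to 1.15). Of 5 ranked homing receptors 2 were higher and 1 lower (median 1.02), and of 3 ranked cytotoxic genes 0 were higher and 1 lower (median 0.688). Both comparisons use the same Tconv cells, and a Foxp3 or CD8 UMI, which chose the other cells, is no finding between them.

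**Figure D5:**
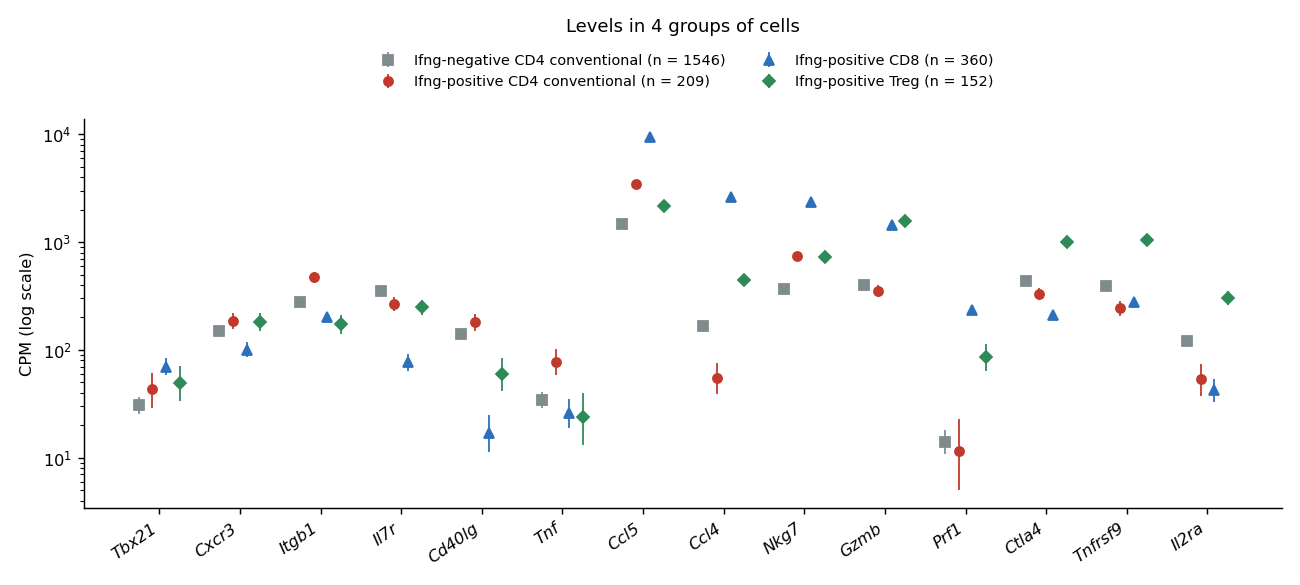
CPM of summed UMIs (log scale) of 14 genes in Ifng-negative Tconv cells (squares), Ifng-positive Tconv cells (circles), Ifng-positive CD8 cells (triangles) and Ifng-positive Treg cells (diamonds), with exact 95% intervals that are smaller than the symbols for abundant genes. Ifng-positive Tconv cells lie lowest for Ccl4, Gzmb, Prf1 and Tnfrsf9 and highest for Itgb1, Cd40lg, Tnf and Cxcr3. Their intervals overlap those of the Ifng-negative cells for Gzmb, Prf1, Cxcr3 and, narrowly, Cd40lg. They also overlap those of the CD8 cells for Tnfrsf9 and of the Treg cells for Cxcr3.

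Whether IL-33 in the tumor changed the share of Ifng-positive Tconv cells could not be read from these libraries. All 209 cells were present in the hashtag library, but only 20 had a hashtag UMI, and 19 of these had exactly 1. By a rule of at least 1 tag UMI with all tag UMIs from 1 tumor, 20 of 164 Tconv cells of B16 tumors were Ifng-positive (12.2%, 7.61 to 18.2%) and 0 of 17 of B16–IL-33 tumors, which allows a share of up to 17.6% by a limit of 3 counts and of up to 19.5% by the exact interval. The difference of −12.2 percentage points had an interval of −18.2 to 7.84 and was not detectable at this depth. The 20 cells carried the 2 tags of B16 tumors in 7 and 13 cells, and no level was compared between the tumors.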

How the data were processed

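One pool of sorted tumor T cells was analysed through 3 libraries. The gene expression and hashtag libraries were deposited by the authors as unnormalized counts, in UMIs for each barcode and gene or tag, and the receptor library as UMI counts of assembled contigs with clonotypes called by Cell Ranger. The header of the count matrix names Cell Ranger 3.1.0 and a combined human and mouse (mm10) reference, and the submitters' processing notes name version 6.1.1. Library preparation and alignment steps beyond these were not repeated. The filtered cells held 26606999 UMIs in all.

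Cells with 200 to 2500 detected mouse genes and under 5% mitochondrial UMIs were kept, as in the study. The Ifng-positive cells and the gene lists were chosen with earlier results of these data known. UMIs were summed over cells and divided by the sum of all genes (CPM). Ratios were given exact conditional binomial intervals, levels exact Poisson intervals, shares Clopper-Pearson intervals, and differences of shares intervals combined from these bounds by the square-and-add method, all at 95%, in SciPy 1.17.1 under Python 3.11.15. Genes were ranked if both groups together had at least 200 UMIs, without receptor segment genes and the genes of the rule. Genes named were those of 23 fixed lists and the 12 highest and 12 lowest ratios, and exceptions are stated. Values of 2 listed genes are not reported here, though the counts and medians of their lists include them. Thinned shares come from 1 random draw of 1500 UMIs per cell with a fixed seed, which left out 24 Ifng-positive and 297 Ifng-negative cells. Doublets were not called, and cells with 2 productive beta chains were left out as an alternative. Where 1 of 35 symbols stood for more than 1 identifier, the identifier with the most UMIs was used. Coordinates are from GENCODE vM21, in which 30934 of 31053 mouse identifiers were found. The ratio and its interval were tested on simulated counts, drawn independently for each gene. The simulation left out the gathering of UMIs in some cells, so it cannot show how well the intervals hold where UMIs gather.

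Alternatives were other gene and mitochondrial limits, a required CD3 UMI, no cells with 2 beta chains, Ifng-negative cells under the same limits or weighted to the same depth over 8 bins, the mean of single-cell CPM, at least 2 Ifng UMIs, a fold of 2, a minimum of 100 UMIs, other clone definitions and single tags. Leaving out cells with markers of other cell types, and the invariant alpha chain in Ifng-negative cells under the same limits, were added after the data were seen. Libraries of whole tumors were not used here.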

Additional observations from a re-analysis of the deposited data

How the results depend on the processing

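The share of Tconv cells with an Ifng UMI was 12.1 to 12.9% under the other cell limits and 8.36% after thinning. The ratio of Tbx21 was 1.28 to 1.59 and that of Cxcr3 1.12 to 1.33 over 9 alternatives, all within the reported intervals. The number of genes past the fold depended on the settings: genes higher numbered 96 with at least 2 Ifng UMIs, 10 at a fold of 2 and 162 at a minimum of 100 UMIs, and genes lower 148 without the upper gene limit, 169 by the mean of single-cell CPM, 218 with at least 2 Ifng UMIs, 30 at a fold of 2 and 313 at a minimum of 100 UMIs, in place of 52 and 96. Of the named genes past the fold, 19 to 21 of 21 higher and 21 to 26 of 26 lower ones were still past it in each alternative. Those not past it against depth-weighted Ifng-negative cells were Lag3, Tnfrsf9, Tcf7, Lef1 and Ikzf2 among the lower and Ifitm3 among the higher genes. The genes that turned direction were Lyz2, at 0.753 with at least 2 Ifng UMIs and 0.311 without cells with markers of other cell types, and Hbb-bs, at 2.04 in the latter setting, in which Hba-a1 had no value. The difference in expanded clones was 0.380 to 5.58 percentage points and that between tumors −13.7 to −9.59, all within the reported intervals. No paired analysis was possible because the cells form 1 pool without replicates. Depth is 1 limit of these data: with a median of 2789 UMIs per cell, most factors and cytokines have no UMI in most cells, and a cell without an Ifng UMI may still express Ifng.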
